A study of Rattus norvegicus with 19 samples.

Results

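Malignant peripheral nerve sheath tumours (MPNST) of the rat trigeminal nerve were compared between 3 tumours grown on the BDIX background and 7 tumours grown in F1 hybrids, 10 of the 19 arrays of the series, chosen by strain label alone. The BDIX-background group held 2 tumours of the inbred strain BDIX (T3 and T4) and 1 tumour of BDIX.BDIV-Mss4a (T6), which the nomenclature gives as a BDIX strain carrying a BDIV segment at Mss4. The F1 group held tumours T1, T2, T5, T7, T8, T9 and T10 from hybrids with BDIV and BDIX as parental strains. Both groups had been injected subcutaneously as newborns, on postnatal day 1, with the DNA-alkylating agent N-ethyl-N-nitrosourea (ENU). The dose was 80 µg for each g of body weight, and the animals are labelled adult. All 3 BDIX-background animals were female, against 2 females (T1 and T5) and 5 males among the F1, so that strain and sex were partly confounded. Each array is labelled as 1 tumour, and the labels do not say whether any tumours shared an animal or a litter. The 2 BDIV tumours were left out of the comparison and are given only where they help to place a value.

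MPNST arise in the nerve sheath from cells of the Schwann cell lineage, the glia that wrap peripheral axons. ENU given to newborn rats of the BD strains leads to tumours of the nervous system after months of latency, and the inbred strains differ in how readily they develop them: BDIX rats are susceptible and BDIV rats resistant. An F1 hybrid carries a BDIV and a BDIX copy of each autosomal gene, whereas a BDIX animal carries only BDIX copies. The congenic strain of T6 carries BDIV alleles within its introgressed segment.

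Expression was read on Illumina bead arrays and is given as the log2 of the background-corrected, quantile-normalized intensity. Of the Schwann cell markers, 4 of 6 had a probe with their symbol, and all 4 were detected on each of the 10 arrays, with a mean level of 11.30 to 11.61 in the BDIX-background tumours and 10.57 to 11.86 in the F1 tumours. Between 44.1% and 50.1% of probes were detected on an array. T9 was the only array of low background, with a 25th percentile of raw intensity of 61.8, against 82.6 to 94.6 on the other 9. The standard deviation of the log2 difference over all features was 0.30 to 0.38 for the 3 pairs of BDIX-background tumours, 0.30 to 0.63 for the 21 pairs of F1 tumours and 0.33 to 0.55 for the 21 pairs across the groups, and the median was 0.44 both across the groups and within the F1. T2 and T10 also contained skeletal muscle RNA: 7 of 8 muscle markers on the array were detected in each, against 2 to 4 on the other 8 arrays.

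Few genes separated the groups. With limma's moderated test and Benjamini-Hochberg adjustment over all features, 11 of 11054 features passed an adjusted p of 0.05, or 0.0995% of those tested. Of these, 4 rose in BDIX-background tumours (0.0362%) and 7 fell (0.0633%). At an unadjusted p under 0.05, 698 features were higher (6.31%) and 612 lower (5.54%). The median difference over all features was -0.01. Complete separation was more common: all 3 BDIX-background tumours lay above all 7 F1 for 258 features (2.33%) and below all 7 for 324 (2.93%).

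The called genes that fell included 2 deubiquitinases and regulators of transcription and splicing. Usp4, a ubiquitin-specific protease on chromosome 8, had the smallest p. Its level was 9.29 in T3, 9.56 in T4 and 9.32 in T6, against a lowest level of 10.32, a median of 10.53 and a highest of 10.78 in F1 tumours. The groups did not overlap, and the difference was -1.15 ± 0.10 (SE), or 2.22-fold lower (limma adjusted p = 0.00698). Otud5, a second deubiquitinase, encoded on the X chromosome, was at 8.71, 8.94 and 9.15 in T3, T4 and T6, against 9.49 to 9.68 in F1 tumours with a median of 9.62. It fell by 0.67 ± 0.08 (limma adjusted p = 0.0297), and T6 was the nearest of the 3 to the F1 range.

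Zmynd8, a chromatin reader protein on chromosome 3, was at 8.11, 8.20 and 8.23 in the BDIX-background tumours and at 8.77 to 9.18 in the F1 tumours, with a median of 9.06. It fell by 0.87 ± 0.08 (limma adjusted p = 0.0107). Prkrip1, a component of the spliceosome on chromosome 12, was at 8.06, 7.94 and 8.03, against 8.57 to 9.10 in F1 tumours with a median of 8.88, and fell by 0.84 ± 0.10 (limma adjusted p = 0.0297). In both genes the 3 BDIX-background tumours were closer together than the F1 tumours were. Zbtb7a, a zinc finger transcriptional repressor on chromosome 7, was at 10.29, 10.25 and 10.43, against 10.69 to 10.96 with a median of 10.84, and fell by 0.53 ± 0.06 (limma adjusted p = 0.0297).

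Ankrd37, an ankyrin repeat protein induced by hypoxia, was at 7.91, 7.92 and 8.20 in T3, T4 and T6 and at 8.52 to 8.83 in F1 tumours, with a median of 8.75. It fell by 0.68 ± 0.09 (limma adjusted p = 0.0404). The 2 F1 females (8.59 and 8.52) and the male T2 (8.58) were at the low end of the F1 range. The remaining call in this direction was a probe with no gene symbol here, ILMN_1359470 (-0.48 ± 0.06).

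Both named genes that rose lie on chromosome 5. Ccnc encodes cyclin C, which acts with the Mediator complex of transcription. Its level was 8.01, 8.24 and 8.05 in T3, T4 and T6, against 7.44 to 7.76 in F1 tumours with a median of 7.53, a rise of 0.54 ± 0.07 or 1.46-fold (limma adjusted p = 0.0429). Nipsnap3b, a member of the NIPSNAP family, was at 10.35, 9.96 and 10.48, against 8.66 to 9.42 with a median of 8.72. It rose 2.63-fold, by 1.40 ± 0.18 (limma adjusted p = 0.0403), and T10 was the highest F1 tumour for both genes. The detection p-values of Nipsnap3b belong to a set of 606 probes (2.78%) that are off the fixed steps of the others, and it was listed as detected on only 3 of 10 arrays although its raw intensity was 3.67 to 13.2 times the array median. Detection was therefore not a guide to its level. The other calls that rose were the unnamed probes ILMN_1362050 (0.80 ± 0.10) and ILMN_1355156 (0.63 ± 0.09).

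**Figure D1:**
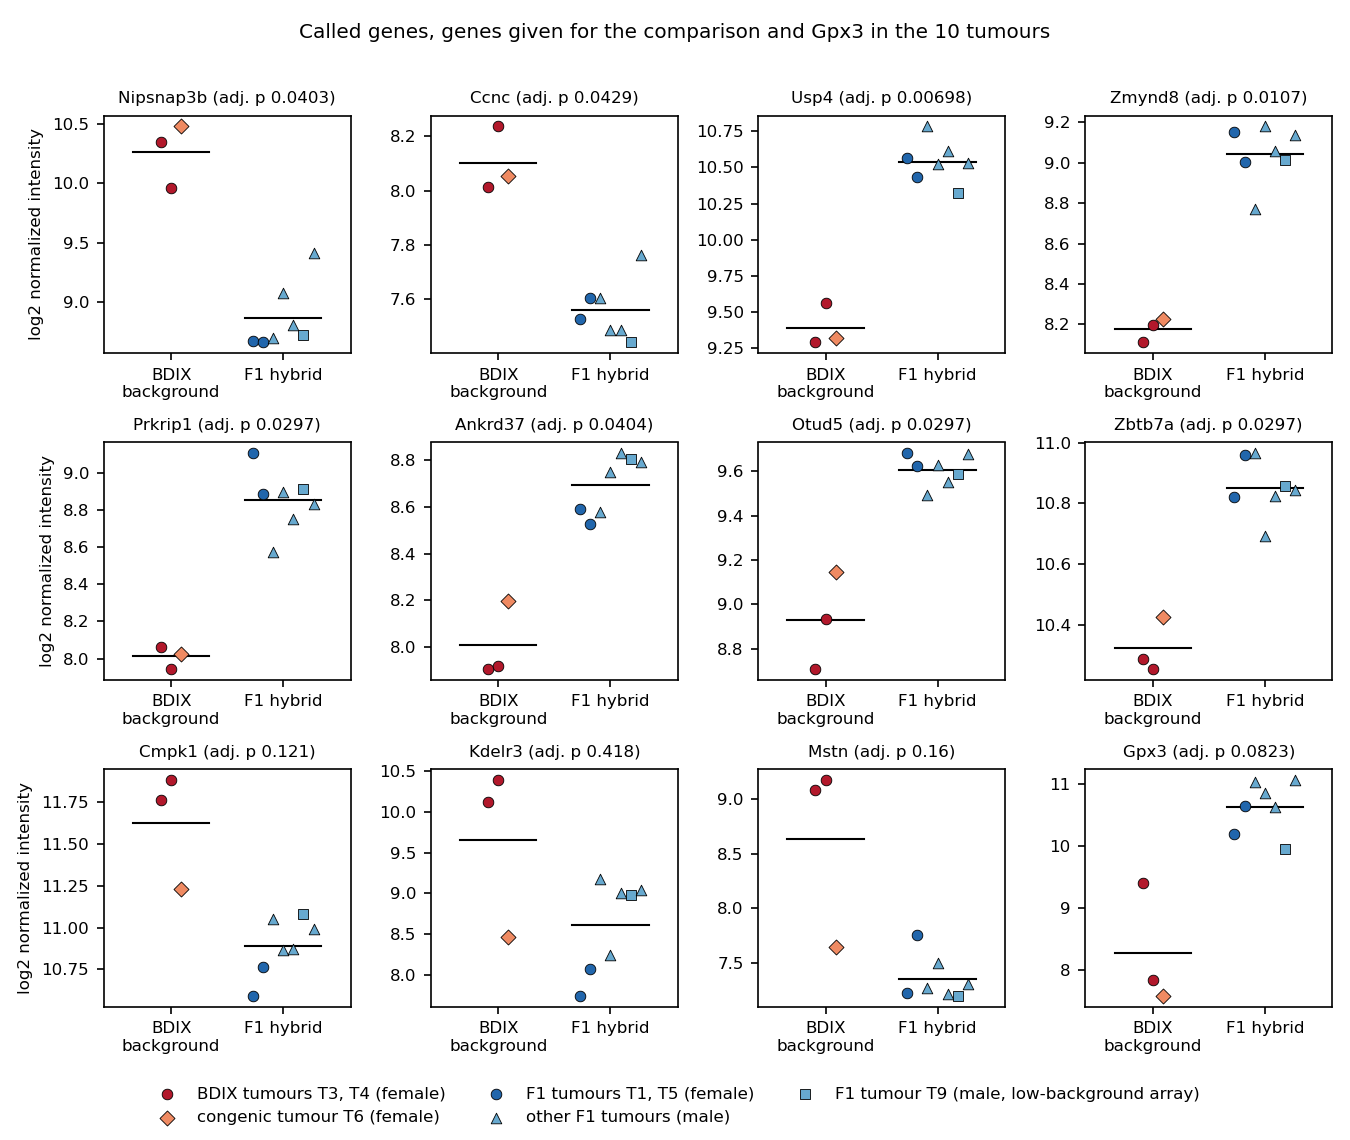
Levels of the 8 called genes with a symbol, of Cmpk1, Kdelr3 and Mstn, and of Gpx3 in each tumour, as log2 normalized intensity on axes that do not start at 0. Points are tumours, with BDIX-background tumours left of F1 tumours and black lines at the group means. The groups of the 8 called genes do not overlap, while T6 lies within the F1 range for Kdelr3 and Mstn.

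The 2 BDIV tumours placed some of these genes. Both BDIV tumours were on the same side of all F1 tumours as the BDIX background for 4 of the 11 called features. The same held for 17 of the 258 features with all BDIX-background tumours above the F1 and for 64 of the 324 with all below. Both BDIV tumours lay beyond all F1 tumours on the opposite side for 1 of the 11, 19 of the 258 and 39 of the 324. The share of all features with both BDIV tumours beyond the F1 was not computed. Usp4 was at 9.48 and 8.55 in BDIV tumours, Zmynd8 at 8.40 and 8.37 and Prkrip1 at 8.36 and 8.34, so that for these 3 genes the F1 tumours were above the tumours of both parental strains. Nipsnap3b was at 7.999 and 7.82 in BDIV tumours, below every F1 tumour, so that the F1 tumours lay between the BDIX-background and BDIV tumours. In untreated nerve the 2 parental strains had the other order, with BDIX minus BDIV at -1.27 (limma adjusted p = 0.0353).

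Sex and strain cannot be fully told apart in these groups. When sex was a covariate, the contrast came to 3 BDIX-background females against 2 F1 females with the spread of all 10 arrays. No feature passed limma's adjusted p of 0.05 in that fit (1132 at an unadjusted p under 0.05). All 11 called features kept their direction and an unadjusted p under 0.05, with adjusted p between 0.073 and 0.202. Usp4 differed by -1.11, Prkrip1 by -0.98 and Nipsnap3b by 1.59 between females. Among F1 tumours alone, male against female, no feature passed limma's test and 700 (6.33%) had an unadjusted p under 0.05.

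Each direction was filled up to 12 named genes with those of smallest p that did not pass. This took 10 higher and 6 lower genes, numbers set by that rule and not a result. The 10 genes of smallest p that were higher had limma adjusted p from 0.0817 to 0.0938 and differences of 0.26 to 1.08. The groups overlapped in none of them, against 2.33% of all features with this arrangement. Genes chosen by p in the same comparison are likely to show it, so it adds no support. Ndufb6, a subunit of respiratory complex I on chromosome 5, was at 11.15, 11.04 and 11.14 in T3, T4 and T6, against 9.63 to 10.62 in F1 tumours with a median of 10.09 (difference 1.08 ± 0.18, limma adjusted p = 0.0823). Sdhb, the iron-sulphur subunit of complex II, also on chromosome 5, was at 11.87, 12.12 and 11.58, against 10.69 to 11.20 with a median of 11.07. Cops5, the catalytic subunit of the COP9 signalosome, is the other chromosome 5 gene of this set, at 10.97, 10.88 and 10.72 against 9.58 to 10.34 with a median of 9.99. The remaining 7 were Nipa2, a magnesium transporter, Ptp4a1, a protein tyrosine phosphatase, Zdhhc6, a palmitoyltransferase, Pggt1b, a subunit of a protein prenylation enzyme, Atp6v1a, a subunit of the vacuolar proton pump, Marchf5, a mitochondrial ubiquitin ligase, and Wsb2.

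The 6 genes of smallest p that were lower without passing had adjusted p from 0.0594 to 0.0948. Gpx3, the secreted glutathione peroxidase, had the largest difference of these 6: 9.41, 7.84 and 7.58 in T3, T4 and T6, against 9.95 to 11.07 in F1 tumours with a median of 10.64. Its difference was -2.35 ± 0.40, with a spread of 0.99 (SD, n = 3) in BDIX-background tumours and 0.42 (SD, n = 7) in F1 tumours, and it did not pass the test (limma adjusted p = 0.0823). Brd2, a bromodomain protein that binds acetylated histones, was at 8.97 to 9.18, against 9.39 to 9.65 with a median of 9.49. Sox4, a transcription factor, was at 8.29, 8.17 and 8.20, against 8.48 to 9.03 with a median of 8.85. The others were Lcmt1, which methylates protein phosphatase 2A, Ppp1r10, a regulatory subunit of protein phosphatase 1, and Gpr108.

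Cmpk1, Kdelr3 and Mstn, the genes given as markers of this comparison, were higher on average in BDIX-background tumours, and none passed the test over the 10 arrays. Cmpk1, the kinase that phosphorylates cytidine and uridine monophosphates, lies on chromosome 5. It was at 11.76 in T3, 11.88 in T4 and 11.23 in T6, against a lowest level of 10.59, a median of 10.87 and a highest of 11.08 in F1 tumours (difference 0.73 ± 0.15, limma adjusted p = 0.121). The groups did not overlap, but T6 was nearer to the highest F1 tumour, T9, than to T3. Kdelr3, a receptor that returns escaped proteins to the endoplasmic reticulum, was at 10.12, 10.39 and 8.47, against 7.74 to 9.18 with a median of 8.98. T3 and T4 were above all F1 tumours and T6 was within them (difference 1.05 ± 0.46, limma adjusted p = 0.418). Mstn encodes myostatin, a secreted inhibitor of muscle growth of the TGF-beta family. It was at 9.09, 9.17 and 7.64, against 7.20 to 7.76 with a median of 7.27 (difference 1.28 ± 0.30, limma adjusted p = 0.16). All 3 BDIX-background arrays and 3 of the 7 F1 arrays detected Mstn, and the highest F1 tumour, T5, was above T6. Mstn was not among the muscle genes of T2 and T10, where it was at 7.27 and 7.31.

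The lists for the pathways of these genes held no called member. Over all features the share called was 0.0995%, so lists this short would mostly hold none. Of 14 tested genes of pyrimidine nucleotide synthesis none passed the test, and the median difference was 0.01; only Cmpk1 and Umps, which makes uridine monophosphate, had an unadjusted p under 0.05. None of 21 genes of endoplasmic reticulum to Golgi transport passed, with a median of 0.05. Kdelr1, of the same receptor family as Kdelr3, was at 12.06, 11.93 and 11.83, against 11.94 to 13.10 with a median of 12.07. Of 10 tested genes of the myostatin and myogenic list none passed (median -0.02). The list's Fst, the secreted antagonist follistatin, was at 8.94, 8.83 and 7.97, against 7.32 to 8.36 with a median of 7.81, so that T3 and T4 were again the high tumours. The receptor gene Acvr2a stayed near the background on all arrays, between 7.25 and 7.37 in both groups.

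Leaving out T9, the array of low background, gave 40 called features (0.362%), 20 higher and 20 lower. All 11 features called with T9 were among them. T9 was the highest F1 tumour for several of the genes added. Cox5a, a subunit of respiratory complex IV, was at 11.51, 11.35 and 11.38 in T3, T4 and T6 and at 10.74 to 11.73 in F1 tumours, and its difference was 0.40 with T9 (limma adjusted p = 0.453) and 0.52 without it (limma adjusted p = 0.0416). T9 was likewise highest for Ndufb8, of complex I, whose differences with and without T9 were 0.48 and 0.63. The same held for the ribosomal protein gene Rpl5 (0.39 and 0.49) and for Mapre1, which binds microtubule ends (0.68 and 0.96). Tmem126b, a complex I assembly factor, was at 10.01 in T3, 9.997 in T4 and 10.03 in T6, against 8.87 to 9.51 with a median of 9.46. Here T9 was the lowest F1 tumour, and limma's adjusted p was 0.00463 without T9 and 0.116 with it. Lower without T9 were Nr1h3, the oxysterol receptor LXR alpha (-0.97), Cuedc1 (-1.04), the protease Capn2 (-0.52), the phosphate transporter Slc20a1 (-0.43) and Brd2 (-0.45). Cmpk1, Kdelr3 and Mstn did not pass without T9 either, with limma adjusted p of 0.0909, 0.357 and 0.147.

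Leaving out the congenic tumour T6 compared the BDIX strain alone with the F1 hybrids. Without T6, 38 features were called (0.344%), 27 higher and 11 lower, and 9 of the 11 features called with T6 were among them; Nipsnap3b and Ccnc were not (limma adjusted p = 0.0589 and 0.0548). Of the 29 features called only without T6, T6 lay within the F1 range for 18. On chromosome 5 lay 10 of the 29, all higher, against 511 of all 11054 features tested. Mstn then rose by 1.77 ± 0.14 and Cmpk1 by 0.93 ± 0.12 (limma adjusted p = 0.00478 and 0.0335). Rlbp1, a retinoid-binding protein, was at 9.46 and 10.35 in T3 and T4 and at 7.29 in T6, against 7.24 to 8.07 in F1 tumours, and rose by 2.41. Rraga, a GTPase that signals amino acid supply to mTORC1, was at 11.95, 12.09 and 11.16, against 10.85 to 11.22, and rose by 1.01. Scp2, a carrier of sterols, was at 10.70 in T3, at its highest in T4 and at 9.55 in T6, against 9.04 to 9.71, and rose by 1.46. Rraga, Scp2, Cmpk1 and Sdhb lie on chromosome 5, as do Mknk1, a kinase activated by MAP kinases, the elongin subunit Eloc, Caap1, Plaa, Leprot and Tm2d1, which were also called without T6. Kdelr3 did not pass without T6 (difference 1.65, limma adjusted p = 0.17).

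Chromosome 5 stood apart from the other chromosomes in the comparison, a pattern chosen after the values were seen and given here as a description without a test. Of 511 features tested on chromosome 5, 403 (78.9%) were higher in BDIX-background tumours, against 34.1% to 58.9% on the other 20 chromosomes. The median difference was 0.12, against -0.04 to 0.02 elsewhere. All 3 BDIX-background tumours were above all 7 F1 for 48 of them (9.39%), against 1.04% to 6.08% on the other chromosomes and 2.33% of all features. The opposite arrangement was found for 1 feature (0.196%, against 2.93% of all features). At an unadjusted p under 0.05, 141 were higher (27.6%, against 2.57% to 12.2% elsewhere) and 1 was lower.

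**Figure D2:**
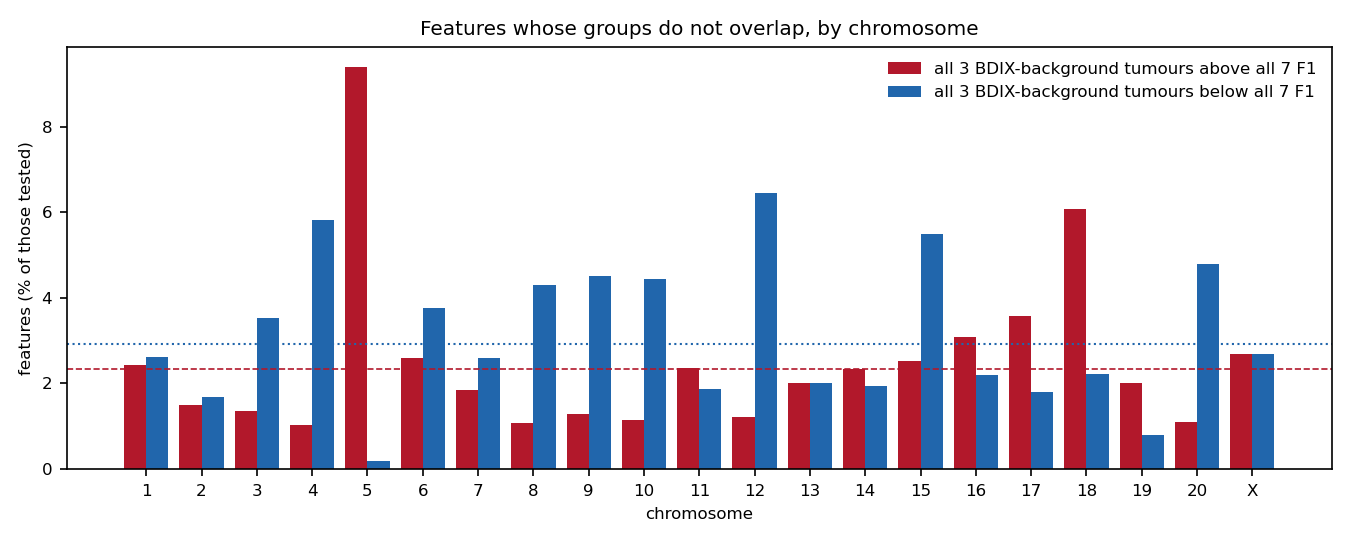
Share of the features tested on each chromosome, in percent, for which all 3 BDIX-background tumours lay above all 7 F1 tumours (red) or below them (blue), with the shares over all features as dashed and dotted lines. Chromosome 5 has the highest red bar, 9.39%, and the lowest blue bar, 0.196%.

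The 48 genes lay between positions 11 and 457 in the order of the 511 tested features and differed by 0.04 to 1.40, with a median of 0.53. They belong to many pathways. Mitochondrial genes among them were Ndufb6, Sdhb, Lyrm2, the fatty acid oxidation enzyme Decr1 and the carrier gene Slc25a51. Decr1 was at 11.40, 10.94 and 10.86 in T3, T4 and T6, against 9.40 to 10.72 with a median of 10.09. Redox genes were Txn1, encoding thioredoxin, with Txndc12 and Gpx7 of the endoplasmic reticulum. Txn1 was at 12.74, 12.68 and 12.69, against 12.05 to 12.46 with a median of 12.15, and Txndc12 at 13.29, 13.09 and 12.68, against 11.66 to 12.38 with a median of 12.24. Genes of RNA processing were Magoh, of the exon junction complex, the splicing factor gene Sf3a3 and Thrap3. Magoh was at 9.21, 9.31 and 8.84, against 8.01 to 8.66 with a median of 8.43. Cell cycle genes were Ccne2, encoding cyclin E2, and Cdc26, a subunit of the anaphase-promoting complex. Ccne2 was at 8.03, 7.72 and 7.74, against 7.37 to 7.67 with a median of 7.46. Except for Nipsnap3b and Ccnc, none of the 48 passed the test over the 10 arrays. T6 was the lowest of the 3 BDIX-background tumours for 28 of the 48.

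Among the 370 chromosome 5 features detected on all 10 arrays, the median departure from the mean of the 10 tumours was 0.24 in T3, 0.30 in T4 and -0.01 in T6. In F1 tumours it was -0.14 at the lowest, in T9, -0.10 at the median and 0.06 at the highest, in T2. The 2 BDIX tumours were thus above every F1 tumour, and the congenic tumour was not. For 310 of the 370 (83.8%) the mean was higher in BDIX-background tumours. The median difference of the 370 was 0.26, against -0.09 to 0.05 for the other 20 chromosomes. Between females only, 3 against 2, the median over the 511 features was 0.13, and without T9 it was 0.12.

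Other tumours departed on other chromosomes. A median departure of at least 0.15 in either direction was found in T2 on chromosomes 4 (0.35), 15 (0.20), 20 (0.17), 17 (-0.31) and 19 (-0.31), in T10 on chromosome 2 (0.16) and in the BDIV tumour T12 on chromosome 8 (-0.36). Among the BDIX-background tumours it was found only on chromosome 5, in T3 and T4. The arrays measure RNA, and DNA copy number was not measured.

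**Figure D3:**
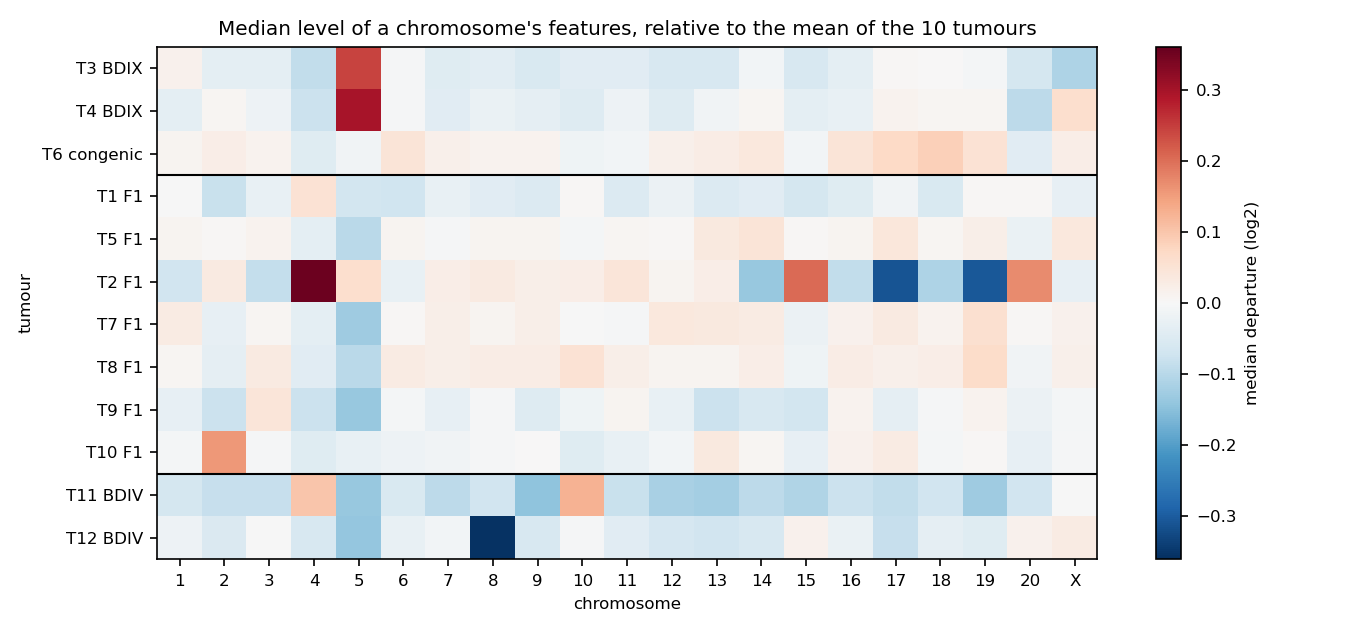
Median departure of each tumour from the mean of the 10 compared tumours, on the log2 scale, over the features of each chromosome that were detected on all 10 arrays; rows are tumours, with the BDIX background above the F1 and BDIV tumours below. Red is above and blue below the mean, and chromosome 5 is red in T3 and T4 while T2 departs on 5 other chromosomes.

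In the order of genes along chromosome 5, the tumours fell into several patterns. T3 and T4 were above 0 in all windows of 40 features (10 in the last). T6 and the F1 tumour T10 were above 0 in the first 3 windows and below 0 in all the others. Over these 120 features the median departure was 0.21 in T3, 0.28 in T4 and 0.13 in T6, against 0.22 in T10 and -0.21 to -0.01 in the other 6 F1 tumours. Over the remaining 250 it was 0.25 in T3, 0.32 in T4 and -0.07 in T6, against -0.10 in T10 and -0.13 to 0.09 in the other F1 tumours. T2 was the highest F1 tumour in this second stretch. In the order of all 511 tested features, Ccnc was at position 54, Nipsnap3b at 148 and Cmpk1 at 242.

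**Figure D4:**
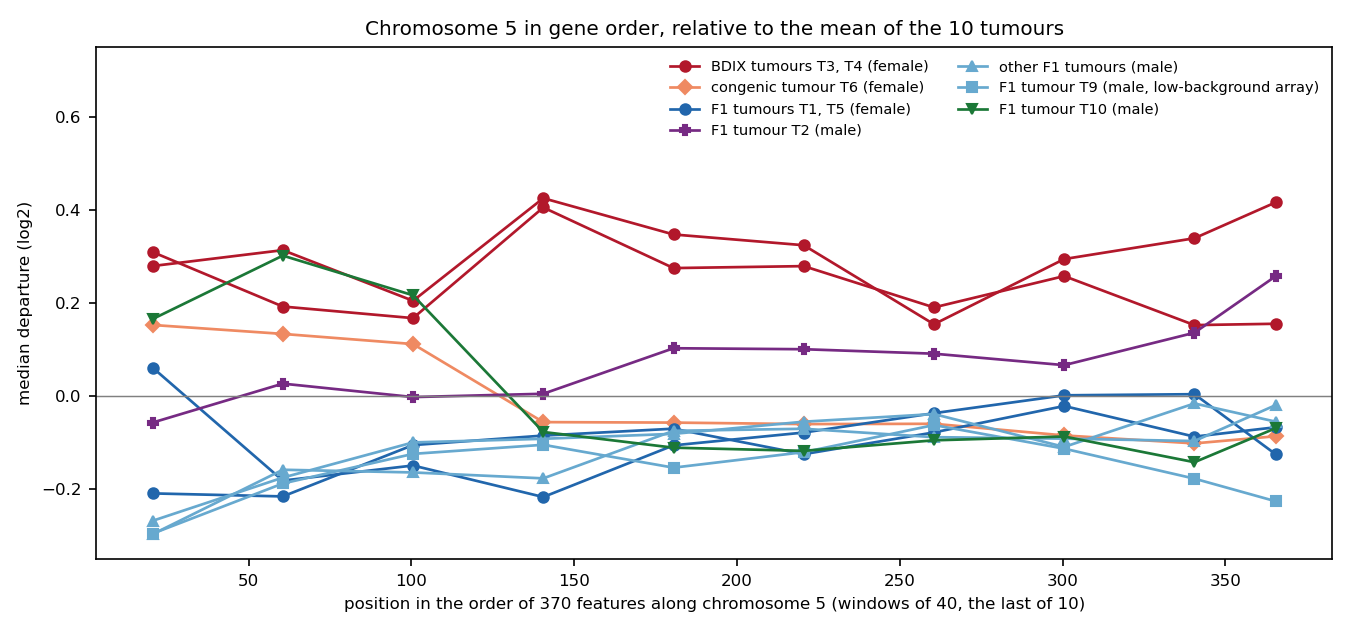
Median departure from the mean of the 10 tumours, on the log2 scale, in successive windows of 40 features along chromosome 5, in gene order and without genome positions. T3 and T4 (red) lie above 0 throughout, whereas T6 (orange) and T10 (green) lie above 0 only in the first 3 windows.

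The same features were set against untreated nerve. Relative to the mean of the 6 nerve pools, the chromosome 5 median minus that of all other chromosomes was 0.02 in T3, 0.04 in T4 and -0.20 in T6. It was -0.34 at the lowest, -0.31 at the median and -0.15 at the highest in F1 tumours, and -0.35 and -0.31 in the BDIV tumours. Hence T3 and T4 were nearest to nerve in this difference, which was negative in the other tumours. In the chromosome 5 median alone T2 was nearest to nerve, at -0.04. By that measure T10 was at -0.08, T6 at -0.09, T3 at 0.08 and T4 at 0.12. Between BDIX and BDIV nerve pools the median chromosome 5 difference was 0.01 over the 511 features. Whether tissue or the array background had a part in these distances was not tested.

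Gene lists were described by their counts and medians. Of 26 lists with 340 tested genes, the only called member was Ankrd37, of the glycolysis and hypoxia list, against 0.0995% of all features. In that list 13 of 15 genes were lower, with a median of -0.11. Pgk1, a glycolytic enzyme, was at 11.15, 11.78 and 11.96, against 11.65 to 12.77 with a median of 12.32, and overlapped between the groups.

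Genes of sensory neurons, whose axons run in the nerve, had the highest list median, 0.95, with all 14 tested genes higher on average and none called. Nefl, a neurofilament subunit, was at 12.84 in T3, 9.77 in T4 and 12.31 in T6, against a lowest level of 7.22, a median of 7.45 and a highest of 11.61 in F1 tumours. Gap43, a growth cone protein that Schwann cells also make, was at 14.42, 13.46 and 14.67, against 11.13 to 13.50 with a median of 11.44 (difference 2.05 ± 0.63, limma adjusted p = 0.249). The list median was 1.05, 0.08 and 0.82 in T3, T4 and T6, against 0.40 and 0.66 in the F1 females T1 and T5 and -0.89 to -0.18 in the F1 males. The F1 females thus lay within the range of the BDIX-background females, and the F1 males below it. With sex as a covariate the median difference was 0.16. All 6 neuron markers were detected on each BDIX-background array and 1 to 6 on the F1 arrays, with mean levels of 8.49 to 9.92 and 7.34 to 9.37. In the BDIV tumours the mean was 9.36 in the female T11 and 9.88 in the male T12, so a low level was not shared by all males. The part that axon content had in the comparison was not tested, and in bulk tissue fewer cells of a type and less RNA per cell cannot be told apart.

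Of 12 cholesterol synthesis genes, 11 were higher in BDIX-background tumours, with a median of 0.56 and none called. Idi1, an isomerase of the pathway, was at 8.64, 9.23 and 8.93, against 7.63 to 8.37 with a median of 8.08, without overlap (difference 0.90 ± 0.18, limma adjusted p = 0.113). Sqle, squalene epoxidase, was at 10.63, 10.98 and 10.34, against 9.31 to 10.78 with a median of 9.78. Ebp, a later enzyme of the pathway, was the exception, at 9.60, 9.81 and 9.89 against 9.76 to 10.45. The list median was 0.69 in T4, 0.27 in T3 and 0.07 in T6, against -0.57 to 0.38 in F1 tumours, so the groups overlapped. Between females only, the median difference was 0.74.

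In the unfolded protein response list 16 of 20 genes were lower, against 5854 of 11054 features, with a median of -0.13 and none called. The median was -0.06 with sex as a covariate and -0.08 without T9. The list median was -0.19 to -0.0037 in BDIX-background tumours, against -0.10 to 0.32 in F1 tumours, highest in T9, so the groups overlapped. Hspa5, the main chaperone of the endoplasmic reticulum, was at 13.66, 13.84 and 14.06, against 14.05 to 14.34 with a median of 14.17. Of 14 genes of alkylation repair, 6 were higher and none was called, with a median of -0.03 (0.04 with sex as a covariate). Alkbh2 and Alkbh3, enzymes of this list that reverse DNA alkylation, had the arrangement seen in 2.93% of all features: they were lower without overlap and did not pass: Alkbh3 was at 7.93, 7.81 and 7.78, against 8.02 to 8.51 with a median of 8.13, and Alkbh2 differed by -0.12. Of 32 cell cycle genes, 19 were higher, with a median of 0.04; between females only it was 0.46, where T1 and T5 had the lowest list medians of all 10 tumours (-0.49 and -0.40). Skeletal muscle genes had a median of -0.66 that rested on T2 and T10: the list median was -0.47 to -0.45 in BDIX-background tumours, against 2.55 in T2, 1.19 in T10 and -0.48 to -0.42 in the other 5 F1 tumours. Red blood cell genes were higher in all 4 tested members. Hbb was at 13.50, 13.16 and 12.47, against 9.96 to 12.44 with a median of 11.62 (limma adjusted p = 0.27).

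**Figure D5:**
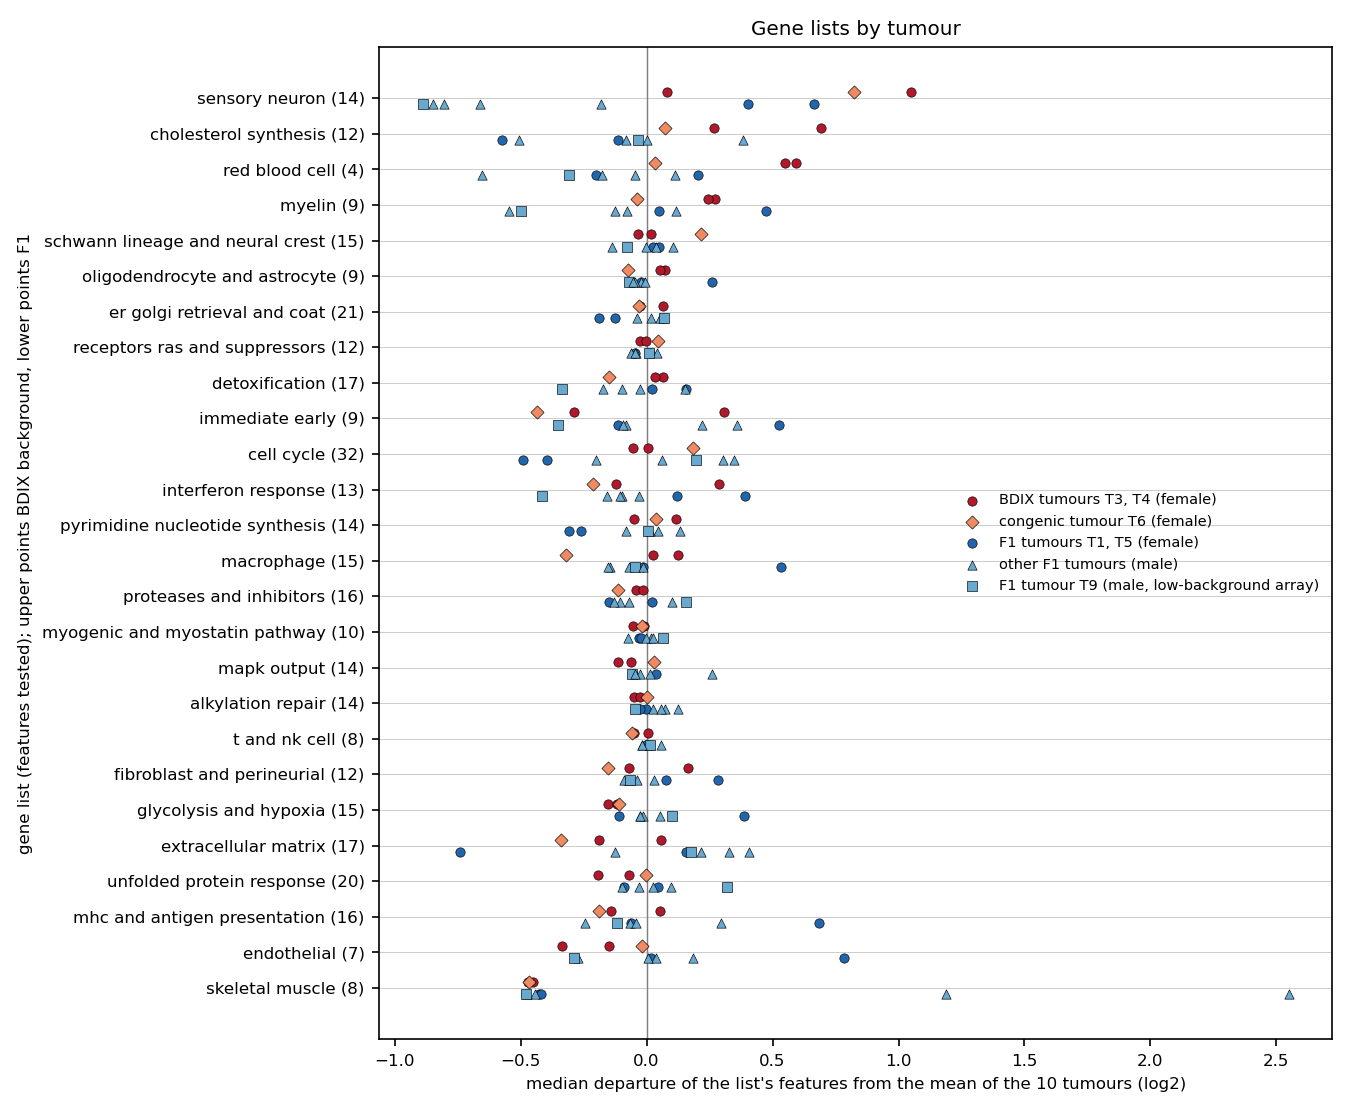
Median departure from the mean of the 10 tumours, on the log2 scale, over the tested genes of each of 26 lists (number tested in brackets). Points are tumours, BDIX background above F1 within each row; the sensory neuron list is highest in T3 (1.05) and the skeletal muscle list in the F1 tumour T2 (2.55).

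No gene of a panel of 10 for Schwann cell tumours passed the test, against 0.0995% of all features. Sox10, a transcription factor of the lineage, was at 12.50, 12.76 and 12.85 in T3, T4 and T6, against 12.18 to 12.93 in F1 tumours with a median of 12.65 (difference 0.10 ± 0.18, limma adjusted p = 0.886). Erbb3, a neuregulin receptor, differed by 0.06 ± 0.24, S100b by -0.11 ± 0.46, the G1 cyclin gene Ccnd1 by 0.23 ± 0.22 and the matrix proteoglycan gene Vcan by 0.04 ± 0.14. Nf1, the tumour suppressor lost in human MPNST, differed by 0.03 ± 0.04, and its probe was detected on only 5 of 10 arrays. Some genes varied widely within a group. Ngfr, the low-affinity neurotrophin receptor, was at 12.93, 12.48 and 13.31, against 9.33 to 13.36 with a median of 12.54. Pdgfra, a growth factor receptor, was at 10.32 and 10.66 in T3 and T4 and at 7.72 in T6, against 7.84 to 10.85 with a median of 8.29. Postn, a secreted matrix protein, was at 11.10, 11.89 and 11.12, against 11.06 to 13.72 with a median of 12.63 (difference -1.07 ± 0.51, limma adjusted p = 0.463). Mbp, a myelin protein, was detected on 9 of 10 arrays at low levels of 7.72, 7.71 and 7.52, against 7.26 to 7.43, and did not pass with T6 (limma adjusted p = 0.1).

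Strain differences were also read in untreated nerve of rats aged 85 days. Between the pools of BDIX and BDIV nerve, 2 a strain, 1545 of 12295 features (12.6%) passed limma's test with sex as a covariate. The male and female BDIV pools are exchanged between the 2 deposited tables, and with their values exchanged 1083 features passed. Of 562 that differed by 1 log2 unit or more, 538 were tested in the tumours, and 256 (47.6%) had the same sign there. All BDIX-background tumours were beyond all F1 tumours in the direction of nerve for 11 (2.04%) and in the opposite direction for 17 (3.16%), against shares of 2.33% and 2.93% above and below over all features. The 11 features called in the tumours were all tested in nerve, and 4 passed limma's test there, against 12.6% of all features. Of these 4, 0 had the same sign in nerve as in the tumours. On a scale with 0 at BDIV nerve and 1 at BDIX nerve, the median over the 562 features was 1.05, 1.08 and 1.13 in T3, T4 and T6, 0.95 to 1.16 in F1 tumours and 0.91 and 1.08 in BDIV tumours. This scale did not separate the strains in tumours and so gave no check of the strain labels.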

How the data were processed

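The authors read the arrays with BeadStudio 3.0, per the submitters' processing notes. Per the file headers, the deposited table gives an average bead intensity and a detection p-value per probe, not normalized; a deposited table of background-subtracted intensity served as an alternative. The genome build is not given in the sources used here. All 19 arrays were background corrected and quantile normalized with neqc in limma 3.58.1 (R 4.3.3; offset of 16), which gave log2 values computed from the deposited intensities. Features were kept where 3 or more of the 10 arrays had a detection p-value under 0.05, with 1 probe a symbol, that of the highest mean: 11054 features, 8101 with a symbol. Of 21791 probes 13387 had 1 symbol and 8404 none. Chromosomes and gene order came from RefSeq GRCr8 by gene ID or symbol. Groups were compared with limma (lmFit, eBayes), by two-sided tests adjusted over all features by the Benjamini-Hochberg method. Named were Cmpk1, Kdelr3, Mstn, 12 genes a direction (the called genes, then those of smallest p, without provisional symbols), called list members and a panel of 10 genes; other genes were chosen after their values were seen. Members and lists were chosen with earlier results of these data known. The fit was tested on simulated data. The number of arrays limits the precision. The p-values set each difference against the spread between these samples, which are taken as independent.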

Additional observations from a re-analysis of the deposited data

Results flagged for a closer look

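In each group of 7 F1 tumours, the highest or lowest value was set against the gap to its neighbour by Dixon's criterion for named genes, list medians and chromosome medians. Of 87 sets of values, 12 held a value that stood apart; chance gives about 1 in 20. T2 held 6 of them. Its chromosome medians were 0.35 on chromosome 4 (-0.08 to 0.05 in the other F1 tumours), 0.20 on chromosome 15 (-0.06 to 0), -0.31 on chromosome 17 (-0.03 to 0.04), -0.31 on chromosome 19 (0 to 0.07) and 0.17 on chromosome 20 (-0.03 to 0.01). The genes of MAP kinase output had a median of 0.26 in T2, against -0.06 to 0.04. T1 held 3: the macrophage list at 0.53 (-0.15 to -0.01), the oligodendrocyte and astrocyte list at 0.26 (-0.07 to -0.01) and the glycolysis and hypoxia list at 0.39 (-0.11 to 0.10). T1 was not alone in the mean of 4 oligodendrocyte lineage markers: 9.20 in T1 and 8.72 in T7, against 7.23 to 7.25 in the other F1 tumours. That mean was 8.82 in T3, 8.92 in T4 and 7.26 in T6. The T and NK cell list was at 0.06 in T8, against -0.02 to 0.01. Nf1 was at 7.41 in T5, against 7.25 to 7.30, levels near the background. The called probe ILMN_1355156 was at 8.24 to 8.44 in the BDIX-background tumours, against 7.99 in T10 and 7.58 to 7.73 in the other F1 tumours.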

How the results depend on the processing

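The 11 calls depended on the processing. No feature passed limma's test with median scaling (641 at an unadjusted p under 0.05), with the authors' values (1235), with sex as a covariate (1132) or between females only (1341). There were 2 calls with no filter, 6 with the BDIV tumours in the fit and 230 with array weights. Quantiles on the 10 arrays alone gave 12 calls and features detected on 6 of 19 arrays gave 11, each with all 11 main calls kept. Features detected on all 10 arrays gave 13 calls, with 10 of the main calls kept. Leaving out 1 array gave 2 to 40 calls: 2 without T3 or T4, 3 without T7 or T8, 4 without T1, 7 without T2, 9 without T5, 16 without T10, 38 without T6 and 40 without T9. Alternatives chosen after seeing the data gave 23 calls without T2 and T10 and 10 without probes of combined detection p-values. All 11 called features kept their sign in every fit that tested them. The chromosome 5 median of 0.12, chosen after seeing the data, was 0.36 with the authors' values, 0.26 over features detected on all 10 arrays, 0.0226 with no filter, 0.0887 with quantiles on the 10 arrays and 0.086 to 0.17 with 1 array left out (lowest without T4, highest without T6). The 1545 nerve calls came to 0 to 2272 with 1 pool left out. They were 0 without the second BDIX pool or either BDIV pool, where a strain is left with 1 pool, assumed to vary like the others. The 0 calls of sex among F1 tumours were 0 to 142 with 1 array left out, the highest without T5, where 1 female remains; 5 were called without T1 and 6 without T7. Panel genes that did not pass changed sign: Sox10 with sex as a covariate or between females (-0.077), Nf1 in the same fits (-0.00028), Erbb3 without T1 (-0.0075), T4 (-0.0011), T6 (-0.15) or T7 (-0.014), S100b without T2 (0.13), without T6 (0.016) or with array weights (0.11), and Vcan without T3 (-0.14) or T7 (-0.00016). With 1 array left out, Erbb3 ranged from -0.15 to 0.34, S100b from -0.29 to 0.13 and Vcan from -0.14 to 0.22. The causes were not tested. Of the list medians under the alternatives, 534 moved by less than the spread between F1 tumours and 38 by more. No paired analysis was possible because each tumour and nerve pool carries a number of its own, shared with no sample of another group.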
